A study of Homo sapiens with 8 samples.

Results

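The RNA exosome is a complex that trims and degrades RNA from its 3′ end. Its core is a ring of RNase PH-like proteins, EXOSC4 to EXOSC9, topped by a cap of RNA-binding proteins, EXOSC1, EXOSC2 and EXOSC3. In human cells the ring itself does not cut RNA; that is done by the attached nucleases EXOSC10, DIS3 and DIS3L. The complex matures ribosomal and small nucleolar RNA in the nucleus and removes faulty or spent transcripts in the nucleus and cytoplasm. The 10 genes with the symbols EXOSC1 to EXOSC10 were followed here, out of 25435 symbols in the count table. All 10 were found and all 10 passed the filter on low counts, with between 289 and 15011 counts per library. The group was chosen by symbol around EXOSC5, and EXOSC5 was selected on its CPM in knockout against control libraries, where it was lower. For EXOSC5 that comparison is therefore a description and carries no test, while the other 9 subunits entered because they belong to the same complex.

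All libraries came from SET-2 cells, a megakaryoblastic leukemia line that arose from essential thrombocythemia and carries an activating JAK2 mutation. Cells received one of 2 guide RNAs against ZRSR2 (the knockout libraries) or one of 2 non-targeting guides (the control libraries), from a virus that also carries GFP, and each guide was used in 2 experiments. This gave 4 knockout and 4 control libraries. RNA was taken on day 20 for one biological replicate and day 25 for the other; that these are experiments 1 and 2 in that order is an assumption. Within each genotype, experiment 1 supplied replicates 1 and 2 (guide 1, then guide 2), and experiment 2 supplied replicates 3 and 4 in the same guide order. The labels do not describe separate cultures within an experiment, and all cells are of 1 line, so p-values measure the spread between these libraries. One more ZRSR2 guide is named for the series; no library of it was used here. The labels do not say whether the cells were sorted for GFP or cloned.

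ZRSR2 helps the minor spliceosome recognise the end of U12-type introns, a rare class that typically begins with GTATCCTT or ATATCCTT in place of the looser start of ordinary introns. Starts of the subunits' introns are shown because EXOSC5 holds such a start. They were read from GENCODE 29 transcripts on GRCh38 that run across an intron, since a genome sequence was not used here. Each line gives the last 10 bases of the exon in lower case, the first 8 bases of the intron in capitals and the next 12 in lower case, all 5′ to 3′ on the gene's own strand.
EXOSC5, intron 3 of 5, chr19:41389906-41391840, minus strand: tgccggctctGTATCCTTtctgccaggcct
EXOSC2, intron 5 of 8, chr9:130699395-130700866, plus strand: ccttatcagtGTATCCTGcgctttgcactc
EXOSC9, intron of a transcript with no coding annotation, chr4:121802733-121804621, plus strand: gcaacagaagGTATTCTTttttttaacctt
EXOSC7, intron 5 of 7, chr3:45001609-45005290, plus strand: tcaatacaagGTAAGTCTtcctagaaacag
EXOSC8, intron 4 of 10, chr13:37003008-37004515, plus strand: agttaaagcaGTAAGTCTaaatatgtccta
EXOSC10, intron 1 of 24, chr1:11098157-11099720, minus strand: ctttgtgaagGTGAGTTCgcggggcctcgg

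The EXOSC5 start matched the motif at all 8 bases. The start in EXOSC2 differed at 1 base, as did the one in EXOSC9. For EXOSC9, no coding annotation means that no protein-coding transcript of GENCODE's basic set holds this intron. Other transcripts with a coding part were not checked for it. EXOSC7, EXOSC8 and EXOSC10 are shown for contrast; the starts printed for them differed at 4, 4 and 5 bases. Among 55568 distinct intron starts that could be read on the transcript strand, 175 matched exactly, or 0.315%, and 395, or 0.711%, matched within 1 mismatch. In the other subunits the fewest mismatches in any readable start were 5 in EXOSC1, 4 in EXOSC3 and 5 in EXOSC4. They were 4 in EXOSC7 and EXOSC8 and 3 in EXOSC10. EXOSC6 has no intron in this annotation. The readable starts numbered 2 in EXOSC5, 4 in EXOSC2 and 8 in EXOSC10, so other starts of these genes were not examined.

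The second mark of this intron class is a branch motif, TCCTTAAC, near the intron's end. The end of the EXOSC5 intron was not covered by a transcript and was not examined. An EXOSC2 intron with the same start but a later end, chr9:130699395-130702142, was covered at both ends. Its last 50 bases, with the best match to the branch motif in capitals, differ from that motif at 2 bases.
EXOSC2, last 50 bases: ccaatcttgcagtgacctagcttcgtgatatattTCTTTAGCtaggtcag
Start within 1 mismatch and branch motif within 2, within the searched window at the intron's end, occurred together in 149 of 37044 introns readable at both ends, or 0.402%. The branch motif alone was met by 19.4% of those introns, so it separates them weakly. A match is a likeness of letters. Counts per gene do not show how any intron was spliced.

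The targeted gene was examined first. In CPM (counts per 1000000 counts of a library, after scaling), the knockout replicates in order held ZRSR2 at 29.4, 22.9, 28.3 and 18.7. The controls held it at 37.9, 39.2, 39.7 and 41.1 CPM. The genotypes did not overlap. A two-sided exact permutation test gave p = 0.0556 over the 36 arrangements of the labels within experiments, the smallest they allow, and p = 0.0286 over all 70 arrangements. ZRSR2 did not pass edgeR's test with adjustment over all genes: on the log2 scale it stood at −0.67 (SE 0.15; adjusted p = 1.00, and 0.275 with the experiment as a block). ZRSR2 mRNA remained at 73.1% of the control mean with guide 1 and 52.7% with guide 2. Library totals ran from 31106042 to 71521173 counts, with control replicate 3 the deepest. Of 9 megakaryoblast markers, 8 averaged at least 1 CPM and GP1BB was listed at 0; their summed level was 3024 to 3612 CPM in knockout and 3074 to 3922 CPM in control libraries. Of 5 lymphoid markers and 5 monocyte and granulocyte markers, 1 each averaged at least 1 CPM: CD79A and LYZ, with MS4A1 listed at 0. Over all libraries CD79A was at 10.3 to 51.1 CPM and LYZ at 206 to 267 CPM. Of 5 erythroid markers 5 averaged at least 1 CPM, with sums of 187 to 221 CPM in knockout and 203 to 239 CPM in control libraries. Of 5 fibroblast and endothelial markers 3 did, with sums of 117 to 148 CPM in knockout and 115 to 143 CPM in control libraries. Most of that sum was PECAM1, at 111 to 141 CPM over all libraries, while COL1A1 and DCN stayed under 1 CPM. The part of other cell types in the results was not tested.

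EXOSC5 (ENSG00000077348, chromosome 19, 41386374 to 41397479 on GRCh38) is a ring protein. Its level in the 4 knockout libraries, in replicate order, was 20.8, 21.2, 21.6 and 19.4 CPM. The 4 control libraries had 29.2, 26.9, 31.6 and 28.4 CPM. The highest knockout value was thus under the lowest control value, and the 4 knockout values were closer to each other than the 4 control values. The means were 20.8 ± 0.954 and 29.03 ± 1.98 CPM (SD, n = 4 each), which puts the knockout at 71.5% of control. The log2 fold change was −0.48 (SE 0.09). Over all 14898 genes tested, 0.376% had all knockout values under all control values, and 0.678% had no overlap in either direction. This is the contrast on which EXOSC5 was picked, so nothing is read from its place in that share. In bulk libraries, fewer cells with the transcript and less of it per cell cannot be told apart.

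Values by experiment and by guide are parts of the contrast on which EXOSC5 was picked, so they are a description and no replication. The knockout level was lower in both experiments and with both guides. Within each experiment both knockout libraries were below both controls, as in 3.26% of all genes, and nothing is read from this share. In experiment 1 the knockout libraries averaged 74.9% of the controls, a log2 fold change of −0.42 (SE 0.12). In experiment 2 it was 68.4%, a log2 fold change of −0.55 (SE 0.12). The difference between these effects, −0.13 with a 95% interval of −0.51 to 0.25, did not pass edgeR's quasi-likelihood test with Benjamini-Hochberg adjustment (adjusted p = 1.00; 0% of genes were called for this difference). ZRSR2 guide 1 libraries held EXOSC5 at 73.1% and guide 2 libraries at 70.0% of the control mean. Guide 2 against guide 1 gave a log2 difference of −0.06, with a 95% interval of −0.44 to 0.31. Its edgeR adjusted p was 1.00, where 0% of all genes were called. With the experiment as a block the interval was −0.35 to 0.22. ZRSR2 mRNA gave a log2 difference of −0.47 between these guides, with a 95% interval of −0.87 to −0.08. Its unadjusted p in edgeR was 0.0259, and it was not called after adjustment. With 2 libraries per guide, a relation between ZRSR2 and EXOSC5 levels was not tested.

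**Figure D1:**
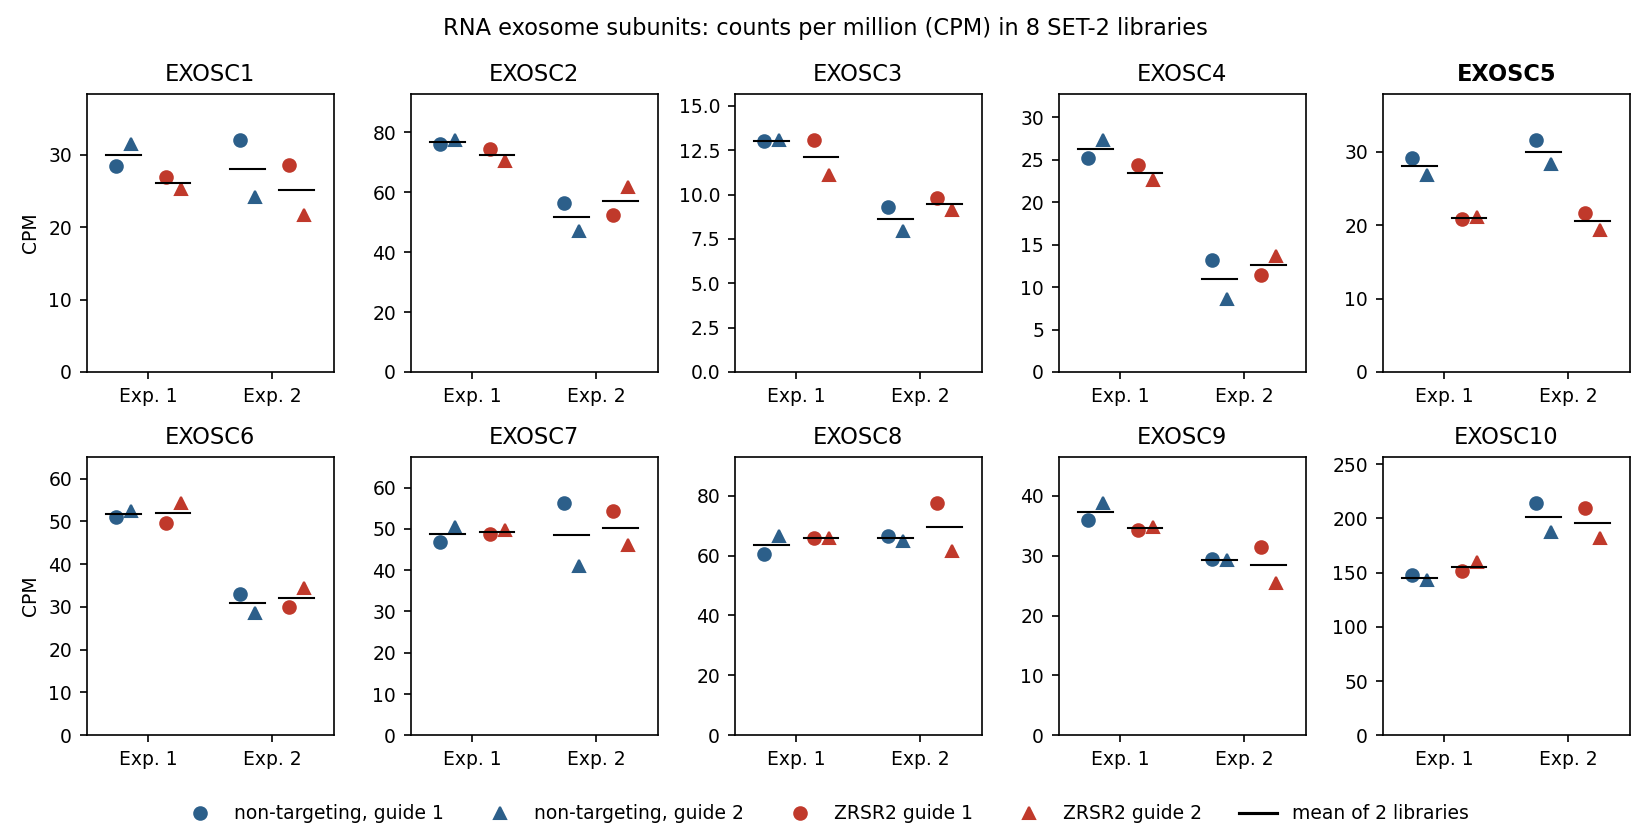
Each panel plots the CPM of 1 subunit (vertical axis, from 0) in the 8 libraries, by experiment; blue marks are non-targeting and red marks ZRSR2 guides, circles guide 1 and triangles guide 2, and lines are means of 2 libraries. EXOSC5 lies at 19.4 to 21.6 CPM with ZRSR2 guides and 26.9 to 31.6 CPM without. EXOSC2, EXOSC3, EXOSC4, EXOSC6, EXOSC9 and EXOSC10 separate by experiment, as 56% of all genes do.

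The other ring proteins gave no such separation by genotype. EXOSC8, the ring protein that pairs with EXOSC5, had 65.9, 65.8, 77.5 and 61.5 CPM in knockout libraries. Controls had 60.4, 66.5, 66.5 and 64.9 CPM, so the genotypes overlapped. Its knockout mean was 105% of the control mean. EXOSC7, whose ring partner is EXOSC6, was at 48.7, 49.7, 54.4 and 46.2 CPM in knockout and 46.9, 50.6, 56.2 and 41.1 CPM in control replicates. EXOSC6 was at 49.7, 54.2, 29.97 and 34.4 CPM in knockout and 50.9, 52.5, 32.9 and 28.7 CPM in control replicates. The genotypes of both EXOSC7 and EXOSC6 overlapped. In EXOSC6 the libraries of the experiments did not overlap, as in 56% of all genes. EXOSC4 was at 24.4, 22.6, 11.5 and 13.7 CPM against 25.2, 27.4, 13.2 and 8.60 CPM in controls. EXOSC9, the ring partner of EXOSC4, was at 34.3, 34.8, 31.4 and 25.4 CPM against 35.9, 38.8, 29.4 and 29.3 CPM. The genotypes of both EXOSC4 and EXOSC9 overlapped.

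Of the cap proteins, EXOSC1 had the next lowest knockout level after EXOSC5, at 88.3% of the control mean. It was at 27.0, 25.2, 28.6 and 21.7 CPM in knockout and 28.4, 31.5, 32.0 and 24.1 CPM in control replicates. The 4 values of each genotype overlapped. Its log2 fold change was −0.18 with a 95% interval of −0.48 to 0.12. EXOSC2, which also holds an intron start close to the U12-type motif, was at 74.4, 70.4, 52.5 and 61.6 CPM in knockout and 76.0, 77.5, 56.6 and 47.0 CPM in control replicates. The knockout mean of EXOSC2 was 101% of the control mean, and its genotypes overlapped. EXOSC3 was at 13.1, 11.1, 9.80 and 9.14 CPM against 13.0, 13.1, 9.32 and 7.94 CPM in controls, again with overlapping genotypes. The nuclease EXOSC10, which trims RNA in the nucleus, was at 151, 160, 209 and 182 CPM against 148, 143, 214 and 188 CPM. Within experiment 1 alone, 4 of the 9 partners (EXOSC1, EXOSC2, EXOSC4 and EXOSC9) had both knockout libraries below both controls, beside 17.9% of all genes, and EXOSC10 had both above, beside 18.5%. Within experiment 2, 0 of 9 were below, beside 12.3% of all genes, and 0 of 9 above, beside 11.2%.

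Of the 9 partners, 0 passed edgeR's test of knockout against control at an adjusted p of 0.05, where 0% of all 14898 genes passed. Each partner had an adjusted p of 1.00. At an unadjusted p under 0.05 the count was 0 of 9 partners beside 0.597% of all genes, and with the experiment as a block 0 of 9 beside 4.63%. DESeq2 called 0 of 9 partners and 0.0268% of all genes, or with the block 0 of 9 and 0.208%. The partners' log2 fold changes ran from −0.18 to 0.07 with a median of 0.01, beside a median of 0.00 over all genes. The intervals limit what can be said of each. For EXOSC8 the 95% interval was −0.15 to 0.28, and for EXOSC7 it was −0.23 to 0.29. For EXOSC4, whose level differed most between experiments, it was −0.95 to 0.87. With the experiment as a block the EXOSC4 interval narrowed to −0.28 to 0.30, and the EXOSC2 interval from −0.41 to 0.43 down to −0.16 to 0.21. For EXOSC1 the interval with the block was −0.42 to 0.06.

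**Figure D2:**
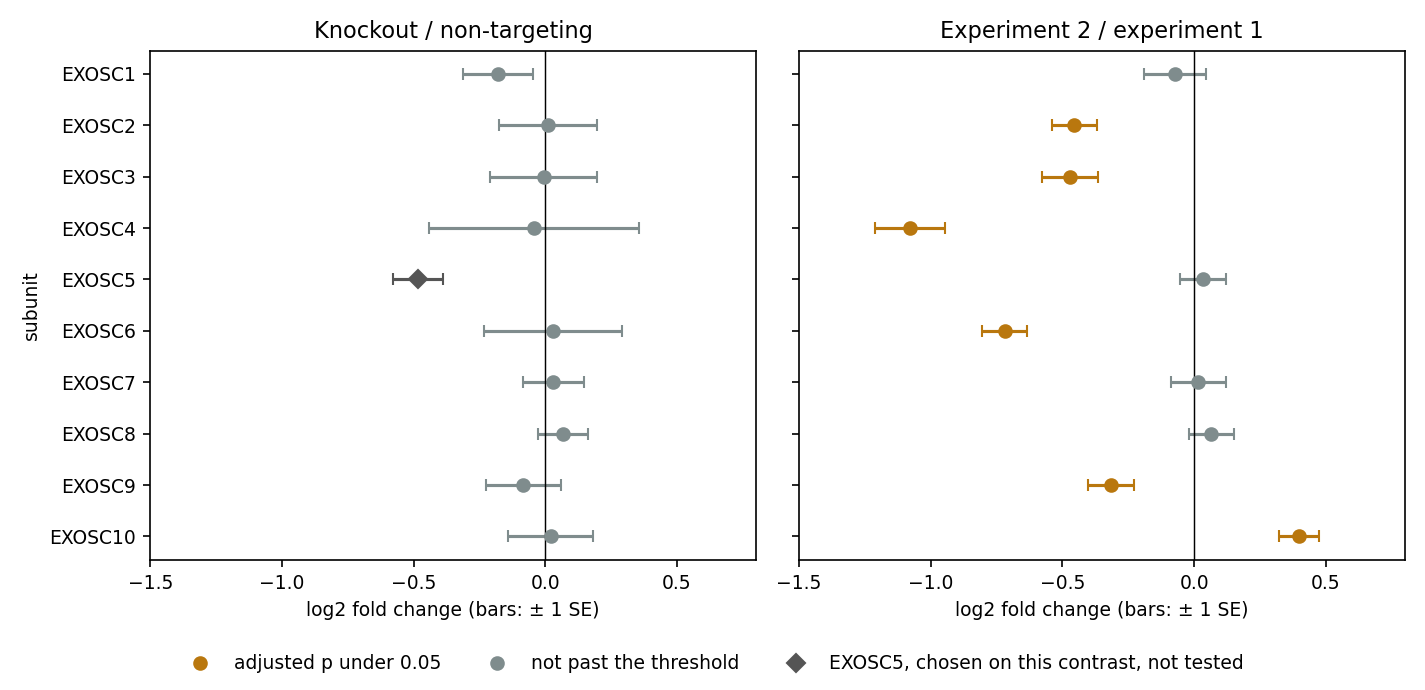
Log2 fold changes of the 10 subunits (rows) for knockout over non-targeting (left) and experiment 2 over experiment 1 (right), with bars of 1 SE from edgeR's fits on 8 libraries. On the left EXOSC5 stands at −0.48 and the other subunits between −0.18 and 0.07. On the right EXOSC5 is near 0 at 0.03 and 6 other subunits pass the threshold. The EXOSC5 value on the right is partly built into its selection on the left.

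EXOSC5 was also compared with its complex within each library, as its log2 CPM minus the mean log2 CPM of the other 9 subunits. This difference was −1.05, −0.998, −0.79 and −0.84 in knockout replicates 1 to 4 and −0.57, −0.76, −0.27 and −0.16 in control replicates 1 to 4. The genotypes did not overlap, and the nearest values were −0.79 in knockout replicate 3 and −0.76 in control replicate 2, from different experiments. The knockout mean was lower by 0.48 on the log2 scale, by 0.36 in experiment 1 and by 0.60 in experiment 2. When each other subunit was set against the remaining 9 in the same way, knockout minus control ran from −0.14 for EXOSC1 to 0.13 for EXOSC8. These values use the contrast that singled out EXOSC5 and are given without a test.

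**Figure D3:**
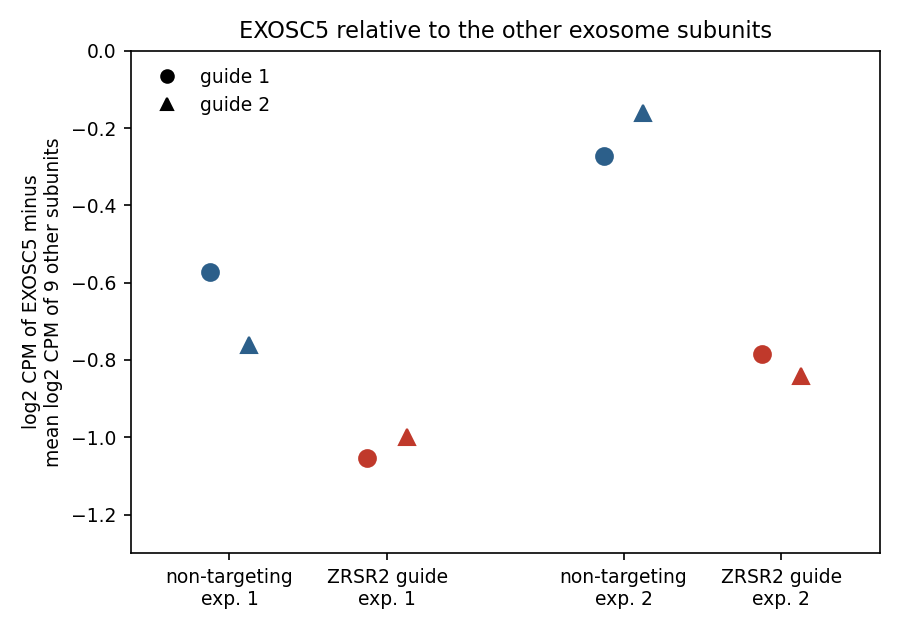
The log2 CPM of EXOSC5 minus the mean log2 CPM of the 9 other subunits (vertical axis) in each library, by genotype and experiment; circles are guide 1 and triangles guide 2. The ZRSR2-guide libraries lie between −1.05 and −0.79 and the non-targeting libraries between −0.76 and −0.16.

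Between the experiments, 6 partners of EXOSC5 passed the test and EXOSC5 itself did not. Experiment 2 was tested against experiment 1 over both genotypes, a comparison not itself used to choose the genes. Since all EXOSC5 knockout values were under all its control values, its libraries could not separate by experiment. Its flat level between experiments is thus partly built into its selection, and nothing is read from its contrast with the partners. EXOSC5 averaged 24.5 ± 4.16 CPM in experiment 1 and 25.3 ± 5.71 CPM in experiment 2 (SD, n = 4 each), a log2 fold change of 0.03 with a 95% interval of −0.16 to 0.22 and an edgeR adjusted p of 0.753. Of the 10 subunits, 5 fell and 1 rose in experiment 2. Of all genes tested, 58.2% were called, 28.6% lower and 29.6% higher. The total of 6 in 10 is near that of all genes, while more of the called subunits were lower than higher; with 10 genes this split was not tested. Day of collection and experiment cannot be told apart. Each experiment was 1 run of 4 libraries that differ in genotype and guide. The SDs and p-values between experiments, here and below, therefore measure the spread between libraries and not between repeated experiments.

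EXOSC4 had the largest shift. Its mean fell from 24.9 ± 1.97 in experiment 1 to 11.8 ± 2.31 CPM in experiment 2, which is −1.08 on the log2 scale (SE 0.13; adjusted p = 6.02e-05 in edgeR), with the 4 libraries of each experiment apart. EXOSC6 fell from 51.8 ± 1.96 CPM in experiment 1 to 31.5 ± 2.62 CPM, or −0.72 in log2 (SE 0.09; adjusted p = 4.62e-05 in edgeR). These 2 ring proteins belong to different pairs. The cap proteins EXOSC2 and EXOSC3 fell to 72.98% and 72.01% of their experiment 1 means, with edgeR adjusted p-values of 9.99e-04 and 0.00312. EXOSC9 fell to 80.3%, with an adjusted p of 0.0104, and this call was lost without control replicate 2, where the adjusted p was 0.0597. EXOSC10 rose from 150 ± 7.13 CPM in experiment 1 to 198 ± 15.7 CPM, or 0.40 in log2 (SE 0.08; adjusted p = 9.90e-04 in edgeR). In each of these 6 genes the libraries of the 2 experiments did not overlap, as in 56% of all genes. EXOSC1, EXOSC7 and EXOSC8 did not pass, with log2 fold changes of −0.07, 0.02 and 0.06. Neither member of the EXOSC5 and EXOSC8 pair passed, with intervals of −0.16 to 0.22 and −0.12 to 0.25.

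The subunits' knockout effects were not shown to differ between experiments. For EXOSC4 the log2 effect was −0.16 in experiment 1 and 0.19 in experiment 2, a difference of 0.35 with a 95% interval of −0.23 to 0.94. EXOSC2 went from −0.08 to 0.14 and EXOSC3 from −0.11 to 0.13. In edgeR's test of the difference 0 of 10 subunits were called, at 0% of all genes, and 0 had an unadjusted p under 0.05. Guides of the same genotype gave 0 calls among the 10 subunits, for ZRSR2 guides and for non-targeting guides, against 0% of all genes in each case. The largest guide difference among the knockout libraries was −0.25 in EXOSC1, with a 95% interval of −0.72 to 0.23. With the experiment as a block the same difference had an interval of −0.58 to 0.08.

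Levels of the subunits were compared with each other per length, as CPM per kb of the longest coding transcript in the basic set of GENCODE 29, which leaves out incomplete transcripts where a complete one is annotated. In control libraries the order ran EXOSC10, EXOSC8, EXOSC7, EXOSC2, EXOSC1, EXOSC5, EXOSC9, EXOSC4, EXOSC6 and EXOSC3. EXOSC10 stood at 61.6 ± 12.1 CPM per kb and EXOSC3 at 6.002 ± 1.45 CPM per kb (SD, n = 4). EXOSC5 was at 26.0 ± 1.77 CPM per kb in controls, in place 6, and at 18.6 ± 0.853 CPM per kb in knockout libraries, in place 8. With incomplete coding transcripts allowed, a choice added after the values were seen, EXOSC4 was divided by 1065 in place of 887 bases, and EXOSC5 was in place 6 in controls and place 7 in knockout libraries. Between neighbours the ranges over control libraries overlapped, except that EXOSC7 and EXOSC2 were apart. With coding length in place of transcript length, EXOSC5 was in place 7 in both genotypes, and EXOSC6, whose transcript of 5153 bases is mostly outside its coding length of 816 bases, moved from place 9 to place 5. The order of mRNA levels is thus uncertain, and it says nothing about protein.

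**Figure D4:**
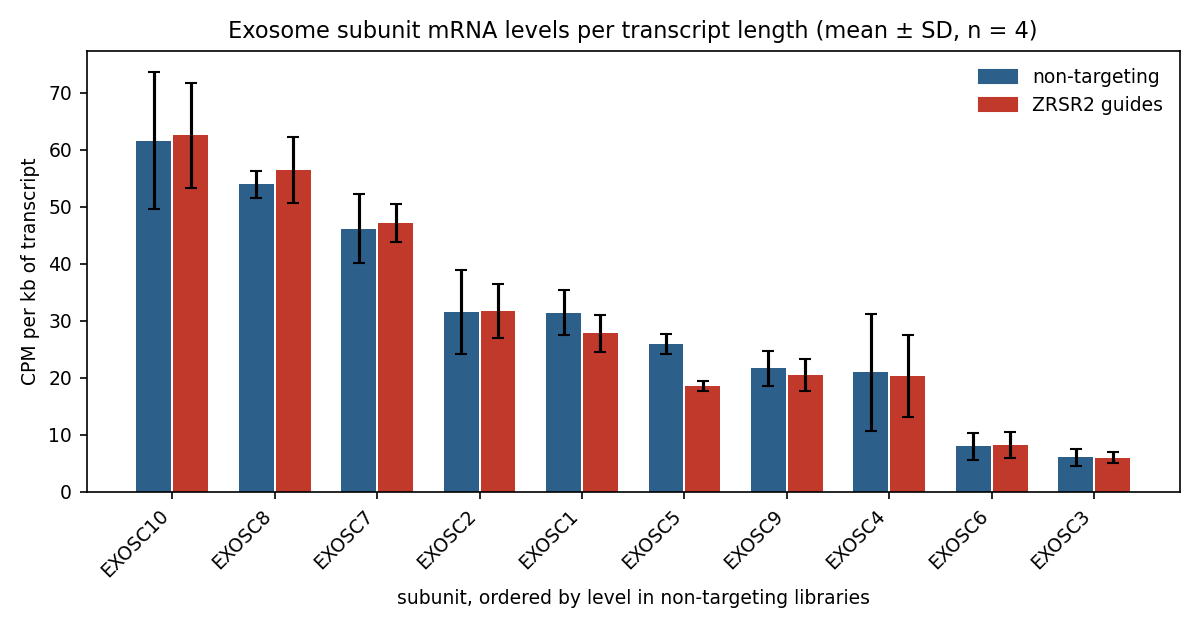
Bars show mean CPM per kb of the longest basic coding transcript (vertical axis, from 0) for the 10 subunits, blue for non-targeting and red for ZRSR2 guides, with error bars of 1 SD over 4 libraries. EXOSC5 is at 26.0 CPM per kb in non-targeting and 18.6 CPM per kb in ZRSR2-guide libraries, and for the other subunits the error bars of the genotypes overlap.

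The nucleases and cofactors that work with the exosome were followed as 5 lists with 30 genes, all of them tested. Against control, 0 of 30 passed in knockout, at 0% of all genes, and 0 had an unadjusted p under 0.05; their median log2 fold change was 0.02. DIS3, the main processive nuclease of the nuclear exosome, had a log2 fold change of 0.00 (SE 0.13). SKIV2L2, the MTR4 helicase that feeds RNA into the nuclear exosome, had 0.03 (SE 0.10). The smallest unadjusted p-values were those of C1D, an EXOSC10 partner at 0.381, NVL at 0.490 and DIS3L, the cytoplasmic nuclease, at 0.510.

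Between the experiments 5 of the 30 rose and 13 fell, beside 58.2% of all genes called. All 4 genes listed for the cap-binding complex and its link to the exosome fell, beside 28.6% of all genes called lower. These were NCBP1 and NCBP2 of the complex itself, and SRRT and ZC3H18. With 4 genes this was not tested as a group. SRRT, the ARS2 adaptor, fell from 266 ± 6.57 to 179 ± 12.6 CPM and ZC3H18 from 181 ± 2.39 to 124 ± 8.73 CPM, with edgeR adjusted p-values of 7.01e-05 and 9.14e-05. MPHOSPH6, a cofactor of the nuclear exosome, had the largest shift of the 30, −0.79 in log2 (SE 0.09, adjusted p = 4.21e-05 in edgeR). WDR74, a nucleolar protein linked to MTR4, had −0.79 (SE 0.10). Of the 13 genes around MTR4, 4 rose and 5 fell, and of the 4 SKI complex genes, which serve the cytoplasmic exosome, 0 passed. XRN1, the cytoplasmic nuclease that degrades from the 5′ end, rose from 44.3 ± 3.20 to 64.2 ± 7.18 CPM (edgeR adjusted p = 8.33e-04). ERI1, a 3′ exonuclease, fell by 0.64 in log2 (SE 0.08; adjusted p = 7.85e-05 in edgeR).

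Genes whose pattern was most like that of EXOSC5 were sought among 11013 genes with a mean of at least 5 CPM. Likeness was the Pearson correlation of log2 CPM over the 8 libraries after each experiment's mean was taken off. These points share libraries and depth, and the correlations are a description. The highest were SPC24 at 0.984, SEMA4C at 0.973, ALDH3B1 at 0.972, FAM178B at 0.966 and SLC4A1 at 0.961. SPC24, a kinetochore protein, was at 13.2, 13.2, 22.0 and 16.1 CPM in knockout and 21.1, 19.9, 33.5 and 30.1 CPM in control replicates. Unlike EXOSC5, SPC24 was higher in experiment 2 in all 4 matched pairs of libraries, and its genotypes overlapped. SLC4A1, the red cell anion exchanger, had all knockout libraries below all controls, as EXOSC5 did and as 0.376% of all genes did. Likeness to EXOSC5 draws on the contrast that singled out EXOSC5, so a shared drop in knockout is partly built into this choice. Among the other exosome subunits the same measure ran from −0.234 for EXOSC6 to 0.633 for EXOSC1.

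Genes with an exact U12-type start among the readable introns gave a frame for EXOSC5. Besides EXOSC5, which was picked on the knockout contrast, there were 141 such genes among those tested. Their median log2 fold change in knockout was −0.02 and 58.9% were lower than control, beside 0.00 and 52.1% for the 10887 tested genes with any readable start. In 6 of the 141, 4.26%, all knockout values were under all control values, beside 0.395% of the genes with any readable start. None of the 141 was called by edgeR, where 0% of all genes were. These figures describe the list and were not tested.

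Genes annotated over the subunits bear on the counts, since the use of strand is not stated. BCKDHA, a subunit of the branched-chain keto acid dehydrogenase, lies on the opposite strand and overlaps EXOSC5 by 20 bases at its start. BCKDHA was at 87.8, 89.1, 150 and 163 CPM in knockout and 99.9, 92.7, 190 and 247 CPM in control replicates, so that within each experiment both knockout libraries were below both controls, as in 3.26% of all genes. In knockout it stood at −0.36 in log2 (SE 0.36; adjusted p = 1.00 in edgeR). BCKDHA rose in experiment 2, with a log2 fold change of 1.00 (edgeR adjusted p = 7.41e-06), whereas EXOSC5 did not. A second annotated gene on the opposite strand, AC011462.1, covers all 11106 bases of EXOSC5, and AL138752.2 covers all of EXOSC3 on the same strand; counts of these 2 were not used here. The part of reads from any of these genes in the EXOSC5 and EXOSC3 counts was not tested. CCNA2 overlaps EXOSC9, ALG5 and SUPT20H overlap EXOSC8, ZDHHC3 and CLEC3B overlap EXOSC7, and TRMT10B and DCAF10 overlap EXOSC3; their log2 fold changes in knockout ran from −0.10 to 0.34, and 0 passed the test.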

How the data were processed

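Libraries of 8 SET-2 samples, made with an mRNA kit per the labels' protocols, were analysed from 1 table. It holds, as deposited, expected counts from RSEM for each symbol; the submitters' processing notes name cutadapt 1.11, RSEM 1.2.30 and hg19. Aligner, annotation and use of strand are not given in the sources used here. The expected counts were whole numbers, and rounding changed 0 values. Columns were matched to samples by the library number in the titles, and 0 columns belonged to other samples. Filtering with edgeR's filterByExpr left 14898 genes, normalisation used TMM factors, and tests were edgeR's quasi-likelihood F tests with Benjamini-Hochberg adjustment over all genes tested (R 4.3.3, edgeR 4.0.16). DESeq2 1.42.0 was an alternative, log2 CPM used a prior count of 2, and figures used matplotlib 3.10.9. The fits were tested on simulated data. One count was worth 0.0143 to 0.0324 CPM after scaling; this covers counting error only, as reads carry no molecular identifiers.

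The genotype comparison used genotype alone; effects by experiment came from 1 fit with 4 cells of genotype by experiment, and guides from a fit with 4 guide means. Knockout and control libraries of the same experiment deviated together (correlation 0.678 to 0.846 in 8 pairs). Across experiments the correlation was −0.816 to −0.709 in 8 pairs. The protocol text ties the experiment to a collection day under the assumption above. The experiment therefore pairs the samples and served as the block, but only in alternative fits. The main genotype and guide fits left the block out, so their intervals include the spread between experiments. Between any 2 libraries chi-square per degree of freedom was at least 3.05, so all 8 counted as separate. Named genes were the 10 subunits, ZRSR2, listed cofactors past the threshold by largest change or otherwise the 3 of smallest unadjusted p, the 5 genes most like EXOSC5 and genes overlapping a subunit; XRN1, NCBP1, NCBP2, ZC3H18, SRRT, ERI1, DIS3 and SKIV2L2 were named to describe their lists, after their values were seen. Members and lists were chosen with earlier results of these data known. Coordinates are GENCODE 29 on GRCh38, not the hg19 of the counts, and come with no conversion. Alternatives were other normalisation, filters, tool, block and each library left out.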

Additional observations from a re-analysis of the deposited data

Results flagged for a closer look

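Of 26 groups of 4 libraries (the 10 subunits, ZRSR2, the level of EXOSC5 relative to its partners and the library total, in each genotype), 1 held a library far from the others, where chance gives about 1 in 20. It was the total of control replicate 3, at 71521173 counts, against 31106042 to 36544665 in the remaining controls. EXOSC5 was at 31.6 CPM in that library, the highest of the controls, and EXOSC1, EXOSC7, EXOSC8 and EXOSC10 were also highest there among controls, at 32.0, 56.2, 66.5 and 214 CPM. The part of depth in these values was not tested. Over all 8 omissions of 1 library, the omission of this one included, the EXOSC5 log2 fold change for knockout ran from −0.52 to −0.44.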

How the results depend on the processing

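Each of 48 results was recomputed, giving 561 values, and 483 of these stayed on the same side of 0 and of the threshold, or near the same size. EXOSC5 in knockout was lower under each setting run, and leaving out each library gave −0.52 to −0.44 with or without the block. These settings reuse the libraries on which EXOSC5 was picked, so they are a description and no replication. The level of EXOSC5 relative to the partners stayed within the replicate spread with another prior count and with each partner left out of the mean.

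Over all genes, knockout against control gave 0 calls in edgeR with the experiment as a replicate block, 4 with DESeq2 and 31 with DESeq2 and the block; with the block and 1 library left out it gave 0 to 12, the 12 without control replicate 3 and 1 without knockout replicate 3. Within experiment 1 the count was 5 with DESeq2, 40 without a count filter and 0 to 2 with 1 library left out. Within experiment 2 it was 13, 116 and 0 to 154, the last without control replicate 3. The difference of effects had 5 calls without a filter, and ZRSR2 guide 2 against guide 1 had 2 with DESeq2 and the block. None of these calls was one of the 9 partners in the knockout comparisons, or of the 10 subunits in the others. The causes were not tested. The block changed no call among the subunits.

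Near 0, signs turned for partners in knockout, none of them called. EXOSC3 was 0.000235 without a filter, 0.0083 with the block and 0.0053 with DESeq2 and the block; EXOSC4 was 0.0105 and 0.0117 in the last 2. Leaving out 1 library, without the block, gave −0.10 to 0.11 for EXOSC2, −0.12 to 0.10 for EXOSC3, −0.27 to 0.21 for EXOSC4, −0.12 to 0.17 for EXOSC6, −0.0305 to 0.11 for EXOSC7, −0.0028 to 0.11 for EXOSC8, −0.14 to 0.0068 for EXOSC9 and −0.073 to 0.14 for EXOSC10. With the block, signs turned without knockout replicate 1 (EXOSC4 0.0275), knockout 2 (EXOSC3 0.0803, EXOSC4 0.0723), knockout 3 (EXOSC4 0.0298, EXOSC7 −0.0203), knockout 4 (EXOSC2 −0.0432, EXOSC3 0.00484, EXOSC6 −0.0118), control 1 (EXOSC3 0.0311, EXOSC4 0.0233), control 2 (EXOSC3 0.035, EXOSC4 0.0735), control 3 (EXOSC3 0.0278, EXOSC4 0.0936) and control 4 (EXOSC2 −0.0324, EXOSC7 −0.0457), and once for EXOSC8 (−0.0038). Between experiments, leaving out 1 library gave 5 to 6 calls among the subunits, with EXOSC1 at −0.18 to 0.0226, EXOSC5 at −0.0038 to 0.0733, EXOSC7 at −0.10 to 0.11 and EXOSC8 at −0.0194 to 0.14.

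Coding length put EXOSC5 in place 7 among the subunits in controls and in knockout libraries, against 6 and 8; incomplete transcripts, added after seeing the data, gave 6 and 7. With no mismatch allowed in the intron start, 0 introns of the subunits matched start and branch motif together, against 1. The smallest count of a subunit was 289.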
